A study of Mus musculus with 12 samples.

Results

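Collagen chain genes were described across 4 cell populations sorted from the aorta and surrounding fat of newborn mice. They were taken as every gene of the deposited count table whose symbol is Col, a number, the letter a and a number. This rule gave 44 of 36512 genes, of which 11 encode fibrillar chains, 8 basement membrane chains, 9 chains that sit on fibrils and 16 other chains. All 44 passed the filter on low counts. The populations are named by the submitters as progenitor cells, intermediate cells, preadipocytes and smooth muscle cells, and each has 3 libraries. All 12 libraries came from wild-type CD-1 pups of mixed sex at 3 days of age, with no treatment named, after digestion of aorta and perivascular fat with collagenase D and dispase. The gates that define each population, the number of pups behind a library and whether replicates came from separate sorts are not stated by the labels. The p-values therefore measure the spread between these libraries, which may be technical.

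Collagens are secreted proteins whose chains wind into a helix and then assemble outside the cell. The fibrillar types I and III make the cable-like fibres that carry load in the wall of the aorta, and types V and XI are minor chains built into the same fibres that set their start and width. Type IV forms the sheet-like network of basement membranes, which surround smooth muscle cells and fat cells, and types XV and XVIII lie next to it. Types XII, XIV and XVI coat the fibre surface, type VI makes beaded filaments near cells, and type VIII makes a short-chain network known from vessel walls.

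Libraries held 11701825 to 17123109 counts. Levels are given as CPM, counts divided by a library total so that libraries of different depth can be compared, after TMM scaling, which adjusts for differences in RNA composition, and fold changes are log2 values ± standard error. Unless another test is named, tests are edgeR's quasi-likelihood tests with Benjamini-Hochberg adjustment over 21285 genes, and "called" means an adjusted p below 0.05. The summed level of 8 smooth muscle genes (Myh11, Acta2 and others) was 7271 to 7880 CPM in smooth muscle libraries, 933 to 1271 in intermediate libraries and at most 232 elsewhere. The 8 progenitor genes (Pdgfra, Pi16 and others) summed to 7127 to 7949 CPM in progenitor libraries and the 8 fat cell genes (Pparg, Fabp4 and others) to 5132 to 8424 CPM in preadipocyte libraries, the highest of the populations in each case. Smooth muscle libraries also held other cells' markers, and none of these listed genes was at 0 in all 3 of them. Mesothelial genes, 8 in the list, summed to 1328 to 1751 CPM there against at most 232 in the other populations. The 8 neuronal genes summed to 819.5 to 1123 CPM against 104 to 159 in preadipocyte and at most 30.5 in the other libraries, and the 10 Schwann cell genes to 233 to 282 against at most 48.6. The epithelial list, with 7 of 8 genes in the table, summed to 125 to 230.1 CPM against at most 14.0 elsewhere. Their part in the smooth muscle values below was not tested. In sorted pools, fewer cells of a type and less RNA per cell cannot be told apart.

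Collagen transcripts took a large share of progenitor and intermediate libraries and a small share of the others. All 44 genes together held 22.6 ± 0.964% of counts (SD, n = 3) in intermediate and 16.5 ± 0.787% in progenitor libraries, against 4.46 ± 0.151% in smooth muscle and 2.29 ± 0.540% in preadipocyte libraries. No population's range met another's. Type I and type III chains (Col1a1, Col1a2 and Col3a1) made up 89.1% of collagen counts in progenitor libraries, 88.7% in intermediate libraries, 75.9% in preadipocyte libraries and 75.4% in smooth muscle libraries. A test of any difference among the populations called 42 of 44 chain genes, beside 79.8% of all genes tested. The 2 that were not called were Col7a1, the anchoring fibril chain, and Col9a3, a cartilage fibril-associated chain. The highest mean was in intermediate libraries for 20 genes, in smooth muscle for 14, and in progenitor and preadipocyte for 5 each. Some highest means were not called above the next population. They were Col3a1, Col5a1, Col5a2, Col6a6, Col9a2, Col20a1 and Col27a1 in intermediate and Col6a1, Col6a2 and Col17a1 in progenitor libraries. In smooth muscle they were Col4a4, Col6a4, Col7a1, Col9a3, Col10a1, Col13a1 and Col25a1, and in preadipocyte libraries all 5 but Col2a1. Replicate 1 was the highest preadipocyte library for each of those 5. Of the 14, 7 (Col4a3, Col6a4, Col7a1, Col10a1, Col13a1, Col19a1 and Col25a1) lay below 5 times a stray-read level in at least 1 smooth muscle library. That level is the count per kilobase of 1226 olfactory and vomeronasal receptor genes, and it was itself highest in smooth muscle libraries, at 0.143 to 0.201 CPM per kilobase. It was 0.0121 to 0.0262 in progenitor, 0.0348 to 0.0866 in intermediate and 0.00827 to 0.0377 CPM per kilobase in preadipocyte libraries. The lowest mean was in preadipocyte libraries for 25 of 44. Shares of all genes by highest or lowest population were not computed, so these counts describe the chain genes alone. Pairwise calls over all genes were uneven too, with 40.7% higher and 25.9% lower in smooth muscle than in preadipocyte libraries. Under scaling by library size alone, the highest population changed for 3 genes (Col20a1, Col9a2 and Col6a6) and the lowest for 3 others (Col15a1, Col4a5 and Col7a1).

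**Figure D1:**
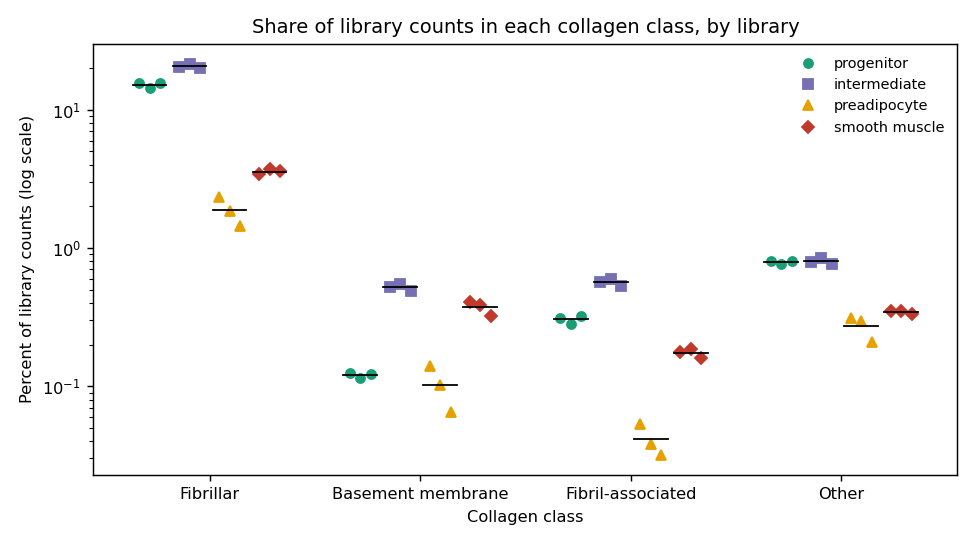
Percent of each library's counts in the 4 collagen classes (log axis). Points are the 3 libraries of a population and bars are means. Fibrillar genes held 15.2% of counts in progenitor and 20.7% in intermediate libraries, and basement membrane genes held 0.121% and 0.522%.

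The classes did not keep the same proportions. Counts were divided by exon length so that genes could be compared. Fibrillar chains then made up 89.0% of collagen signal in progenitor and 89.1% in intermediate libraries, and 74.7% and 75.1% in preadipocyte and smooth muscle libraries. Basement membrane chains made up 0.968 ± 0.0192% in progenitor libraries, 2.89 ± 0.0743% in intermediate libraries, 5.41 ± 0.735% in preadipocyte libraries and 10.3 ± 1.23% in smooth muscle libraries. The 16 other chains, type VI among them, made up 17.9% in preadipocyte and 7.64% in progenitor libraries. These shares were described and not tested. With the longest transcript as length, fibrillar shares were 92.1%, 91.8%, 80.5% and 80.9% in the order progenitor, intermediate, preadipocyte and smooth muscle, and basement membrane shares were 0.635% in progenitor and 7.39% in smooth muscle libraries.

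Col3a1 had the largest share per kilobase of any single chain gene in every population. It encodes the only chain of type III collagen and lies at chr1:45311538-45349706 on the plus strand (GRCm38, GENCODE M21). It was at 100385, 90184 and 99014 CPM in progenitor replicates 1, 2 and 3. In intermediate libraries it was at 106260.0, 106425 and 95019.5 CPM. The values of these populations overlapped, and the difference was not called (log2 fold change 0.09 ± 0.16, adjusted p = 0.717). A fit of these 2 populations alone did call it, at 0.16 with an adjusted p of 0.0419. Preadipocyte libraries held 10024, 10585 and 7168 CPM and smooth muscle libraries 12076, 14462 and 12986 CPM, both far below the other populations. The fold change from progenitor to preadipocyte was -3.38 ± 0.18 (adjusted p = 6.12e-10) and that from intermediate to smooth muscle -2.96 ± 0.17 (adjusted p = 6.02e-09). Per kilobase of exon, Col3a1 made up 48.5% of collagen counts in progenitor libraries, 34.6% in intermediate libraries, 41.3% in preadipocyte libraries and 30.9% in smooth muscle libraries. Col1a1 followed in intermediate libraries at 33.5%, with ranges that overlapped those of Col3a1. Within each intermediate library, Col3a1 was still above Col1a1. This closeness depended on the length used. With the longest transcript as length, the intermediate ratio of Col3a1 to Col1a1 was 1.59 to 1.73, and with coding bases 1.48 to 1.61. By those lengths Col1a2 came before Col1a1, with intermediate ratios of Col1a1 to Col1a2 of 0.858 to 0.922 and 0.898 to 0.966.

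The chains of type I collagen set progenitor and intermediate cells apart. Col1a1 (chr11:94936224-94953042, plus strand) was at 23106, 22250.4 and 24761 CPM in progenitor and 65546, 70337 and 63519 CPM in intermediate libraries. Each intermediate library was more than any progenitor library, and the rise was 1.51 ± 0.28 (adjusted p = 0.00119). Col1a2 (chr6:4504814-4541544, plus strand) was at 49052, 46272 and 49994 CPM in progenitor and 68045, 68779 and 66779 CPM in intermediate libraries. It rose by less, 0.49 ± 0.15 (adjusted p = 0.0263), and that call was lost with no filter on low counts (adjusted p = 0.415) and without any single progenitor or intermediate library (adjusted p from 0.0766 to 0.291). In preadipocyte libraries Col1a1 was at 3816, 1823 and 1252 CPM, with replicate 1 above the others, and Col1a2 at 4327, 3869 and 2874 CPM. The fold changes from progenitor were -3.35 ± 0.30 for Col1a1 and -3.71 ± 0.17 for Col1a2. Smooth muscle libraries held 6533, 6563 and 7215 CPM of Col1a1 and 8349, 8595 and 8804 CPM of Col1a2, between preadipocyte and progenitor libraries with no overlap. Against intermediate libraries the fold changes were -3.30 ± 0.30 and -2.98 ± 0.16.

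The ratio of Col1a1 to Col1a2 counts within a library is free of scaling between libraries. It lay between 0.471 and 0.495 in progenitor libraries, 0.951 and 1.02 in intermediate libraries and 0.764 and 0.819 in smooth muscle libraries, with no overlap. In preadipocyte replicates 1, 2 and 3 it was 0.882, 0.471 and 0.436, so replicates 2 and 3 lay at or below the progenitor range and replicate 1 did not. The ratio of Col3a1 to Col1a1 ranged from 3.999 to 4.34 in progenitor libraries, from 1.496 to 1.62 in intermediate libraries and from 1.80 to 2.20 in smooth muscle libraries. In preadipocyte libraries it was 2.63, 5.81 and 5.72, again with replicate 1 apart. These ratios are descriptions of counts, since the gene lengths differ.

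**Figure D2:**
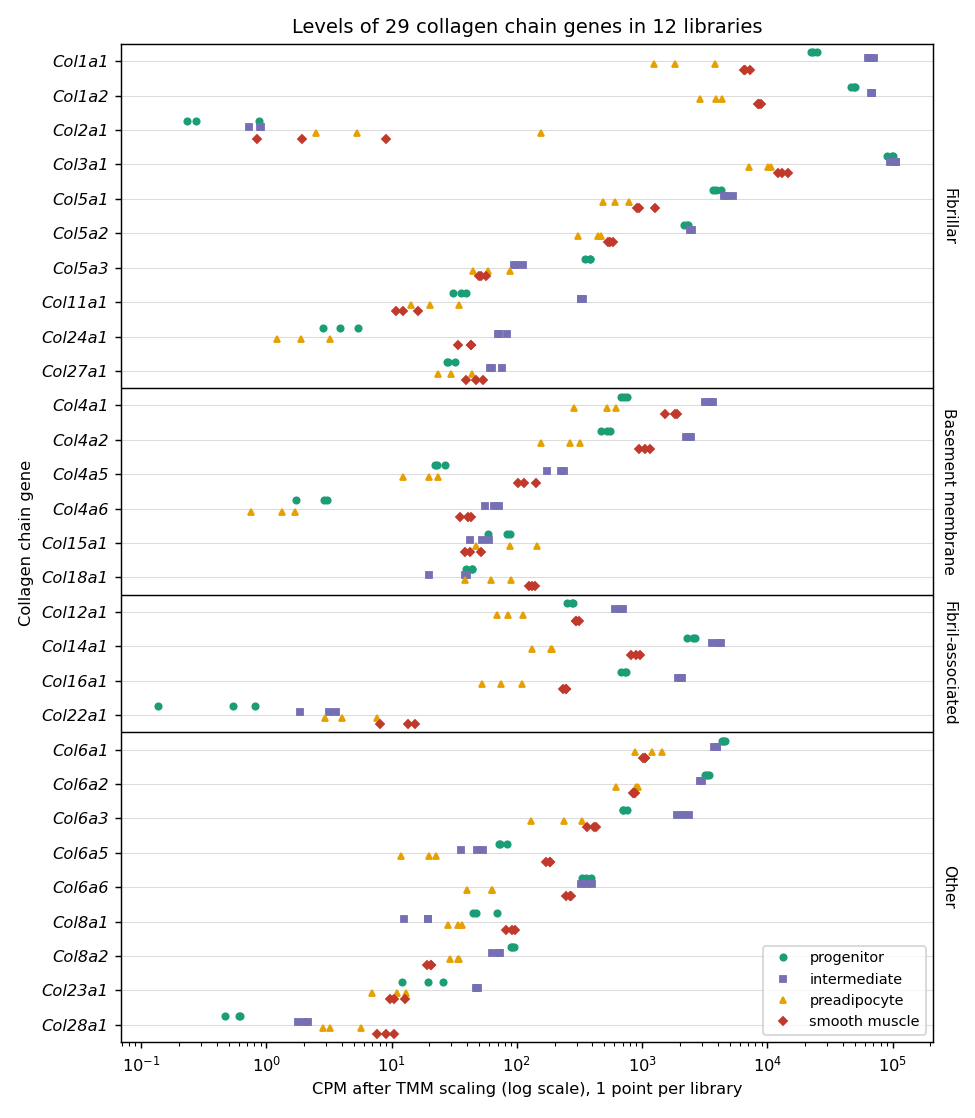
CPM after TMM scaling (log axis) of the 29 collagen chain genes with at least 20 CPM in a population or an 8-fold range of means with at least 5 CPM in each library of the highest population, 1 point per library. Col1a1, Col1a2 and Col3a1 lie far to the right in progenitor and intermediate libraries, and Col24a1, Col4a5 and Col4a6 separate intermediate and smooth muscle libraries from the other populations.

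The minor fibrillar chains moved in several directions. Col5a1, which with Col5a2 makes the common form of type V collagen, was at 3662, 4264 and 3900.3 CPM in progenitor libraries, 4763, 4488 and 5274 in intermediate libraries, 782, 610.5 and 484 in preadipocyte libraries and 946, 907 and 1260.1 in smooth muscle libraries. Col5a2, which lies 24.6 kb from Col3a1 on the opposite strand of chromosome 1, was at 2289, 2154 and 2322 CPM in progenitor libraries, 2497, 2397 and 2447 in intermediate libraries, 467, 446 and 307 in preadipocyte libraries and 533, 579.9 and 556 in smooth muscle libraries. Neither was called between intermediate and progenitor libraries (adjusted p = 0.215 and 0.57). Both fell from progenitor to preadipocyte libraries, at log2 fold changes of -2.66 ± 0.18 and -2.47 ± 0.15. The fit of the progenitor and intermediate libraries alone called both higher in intermediate cells, with adjusted p of 0.00233 and 0.0187. Col5a3, the alternative type V chain, went the other way in intermediate cells. It was at 386, 352 and 381 CPM in progenitor and 99.01, 112 and 94.6 CPM in intermediate libraries, with no overlap and a fold change of -1.87 ± 0.19 (adjusted p = 3.52e-06). Preadipocyte libraries held 87.8, 58.4 and 44.6 CPM and smooth muscle libraries 56.5, 49.6 and 51.9 CPM, so progenitor cells had the highest Col5a3 level.

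Col11a1 and Col24a1 were the fibrillar genes with the steepest rise in intermediate cells. Col11a1, a type XI chain known from cartilage and developing connective tissue, was at 35.9, 30.8 and 38.9 CPM in progenitor and 324, 337 and 323 CPM in intermediate libraries (3.22 ± 0.25, adjusted p = 2.52e-07). Preadipocyte libraries held 34.2, 20.1 and 14.4 CPM and smooth muscle libraries 16.3, 12.3 and 10.9 CPM. Intermediate libraries stood alone for this gene, and the fold change from intermediate to smooth muscle libraries was -4.64 ± 0.27 (adjusted p = 5.43e-09). The small difference of preadipocyte from progenitor libraries (-0.62 ± 0.24, adjusted p = 0.0378) was not called with DESeq2's size factors, library size alone, DESeq2, a minimum of 5 CPM in 3 libraries or a fit of these 2 populations alone (adjusted p = 0.0794, 0.46, 0.0658, 0.104 and 0.0724). It was also lost without progenitor replicate 1 or 3, or without preadipocyte replicate 2 or 3 (adjusted p from 0.0774 to 0.117).

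Col24a1, a fibrillar chain known from developing bone, was at 5.43, 3.90 and 2.81 CPM in progenitor and 3.24, 1.21 and 1.89 CPM in preadipocyte libraries. It was at 82.6, 71.3 and 71.8 CPM in intermediate and 43.04, 43.3 and 33.7 CPM in smooth muscle libraries. Each library of the latter populations was above every library of the former. The rise was 4.22 ± 0.28 in intermediate and 3.31 ± 0.27 in smooth muscle over progenitor libraries (adjusted p = 4.55e-08 and 8.35e-08). The smaller difference between smooth muscle and intermediate libraries (-0.91 ± 0.23, adjusted p = 0.00745) was not called when libraries were scaled by size alone (adjusted p = 0.159). Col27a1, a further fibrillar chain of cartilage, was at 31.8, 27.97 and 27.6 CPM in progenitor libraries, 62.9, 61.4 and 75.7 in intermediate libraries, 43.4, 29.6 and 23.3 in preadipocyte libraries and 47.1, 38.99 and 53.8 in smooth muscle libraries, with a rise of 1.19 ± 0.20 from progenitor to intermediate (adjusted p = 0.000456).

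Upstream sequences were taken from RefSeq (GRCm38.p6) for 35 of the 44 genes, as the 250 bases before each start. Both strands were searched for the TATA box (TATAAA), the CCAAT box with those letters, the GC box (GGGCGG), the AP-1 motif (TGANTCA) and the CArG box. Across 32851 such windows of all genes, 12.4% held the TATA box, 33.8% the CCAAT box, 32.7% the GC box, 6.75% the AP-1 motif and 1.47% a CArG box. Of the 35 chain genes, 5 held the TATA box, 13 the CCAAT box, 21 the GC box, 1 the AP-1 motif and 1 a CArG box. These genes had 38 windows, of which 5, 13, 22, 1 and 1 held the motifs in that order. The windows shown are those of Col3a1, the chain with the largest share per kilobase, and of 3 of the 4 genes that rose by over 3 in log2 fold change from progenitor to intermediate libraries, Col11a1, Col24a1 and Col4a6. The other one, Col4a5 (3.15 ± 0.22), has a window that overlaps an annotated exon and is not printed. The printed windows lie at chr1:45311288-45311537, chr3:114030290-114030539 and chr3:145292222-145292471 on the plus strand and at chrX:141474077-141474326 on the minus strand. Each is written 5′ to 3′ and ends at the base before the start, and capitals mark matches to the motifs on either strand.
Col3a1: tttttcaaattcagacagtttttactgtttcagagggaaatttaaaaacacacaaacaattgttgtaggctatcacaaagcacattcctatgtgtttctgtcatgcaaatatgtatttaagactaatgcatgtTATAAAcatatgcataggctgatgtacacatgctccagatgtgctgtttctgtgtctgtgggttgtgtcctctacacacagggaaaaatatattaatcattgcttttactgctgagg
Col11a1: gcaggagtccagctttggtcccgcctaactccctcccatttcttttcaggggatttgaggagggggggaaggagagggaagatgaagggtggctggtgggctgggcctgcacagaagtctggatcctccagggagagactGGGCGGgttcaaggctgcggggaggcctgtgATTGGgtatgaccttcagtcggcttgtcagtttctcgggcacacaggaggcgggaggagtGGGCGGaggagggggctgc
Col24a1: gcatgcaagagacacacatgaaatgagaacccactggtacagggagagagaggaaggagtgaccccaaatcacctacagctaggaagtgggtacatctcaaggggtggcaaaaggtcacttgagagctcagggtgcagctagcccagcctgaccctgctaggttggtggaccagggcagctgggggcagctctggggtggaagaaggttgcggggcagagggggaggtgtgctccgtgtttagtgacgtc
Col4a6: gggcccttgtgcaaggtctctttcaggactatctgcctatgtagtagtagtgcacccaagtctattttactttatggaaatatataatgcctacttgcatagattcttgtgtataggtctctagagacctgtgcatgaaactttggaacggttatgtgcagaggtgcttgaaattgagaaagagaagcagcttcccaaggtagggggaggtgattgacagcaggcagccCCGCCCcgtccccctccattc
Col3a1 held a TATA box match from base -117 to -112. Col11a1 held GC box matches from -110 to -105 and from -19 to -14 and a CCAAT box on the other strand from -79 to -75. Col4a6 held a GC box on the other strand from -21 to -16, and none of the searched letters were found in the Col24a1 window. The Col4a5 window held a CCAAT box from -196 to -192 and a GC box from -30 to -25. No searched motif was in the windows of all 4 genes that rose. A match describes the letters and is not evidence of binding.

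All chains of type IV collagen with a mean over 20 CPM in any population were highest in intermediate cells and next highest in smooth muscle cells. Col4a1, a chain of the common type IV network, was at 751, 679.9 and 714 CPM in progenitor, 3550.2, 3656 and 3189 CPM in intermediate and 1906, 1827 and 1529.7 CPM in smooth muscle libraries. The rise from progenitor was 2.28 ± 0.22 in intermediate and 1.29 ± 0.21 in smooth muscle libraries (adjusted p = 1.84e-06 and 0.000117), and these populations did not overlap. Smooth muscle libraries were called below intermediate libraries, but not with library size alone (-0.49, adjusted p = 0.0542). Preadipocyte libraries held 623, 524 and 288 CPM, below each progenitor library. That difference (-0.58 ± 0.21, adjusted p = 0.0279) was not called with DESeq2's size factors, with library size alone, with DESeq2 or with a minimum of 5 CPM in 3 libraries (adjusted p = 0.0644, 0.438, 0.0506 and 0.0623). It was also lost without progenitor replicate 1 or 3 or preadipocyte replicate 3, whose removal changed the fold change to -0.31 (adjusted p = 0.0801, 0.0616 and 0.0532).

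Col4a2, the partner chain of Col4a1, kept the same order. It was at 527, 465 and 550.1 CPM in progenitor libraries, 2437, 2374 and 2221 in intermediate libraries, 317, 264 and 155 in preadipocyte libraries and 1162, 1059 and 937 in smooth muscle libraries. The populations did not overlap, and the fold change was 2.19 ± 0.20 from progenitor to intermediate, -1.07 ± 0.20 to preadipocyte and 1.03 ± 0.20 to smooth muscle libraries. Col4a1 (chr8:11198423-11312826, minus strand) and Col4a2 (chr8:11312805-11449287, plus strand) lie head to head, and their first exons share 22 bases. How the counting treated strand is not given in the sources used here, so reads of the 2 genes in those bases cannot be told apart. The ratio of Col4a1 to Col4a2 counts was 1.30 to 1.46 in progenitor and 1.44 to 1.54 in intermediate libraries. It was 1.63 to 1.73 in smooth muscle and 1.86 to 1.99 in preadipocyte libraries.

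Col4a5 and Col4a6, chains of a type IV network known from smooth muscle basement membranes, are a further head-to-head pair, on the X chromosome, with 1308 bases between their starts. Col4a5 (chrX:141475385-141689234, plus strand) was at 23.1, 22.2 and 26.6 CPM in progenitor libraries, 226, 238 and 174 in intermediate libraries, 19.7, 23.4 and 12.3 in preadipocyte libraries and 114, 143 and 102 in smooth muscle libraries. Col4a6 (chrX:141165403-141474076, minus strand) was at 3.03, 1.71 and 2.88 CPM in progenitor libraries, 65.2, 71.4 and 55.6 in intermediate libraries, 0.756, 1.69 and 1.34 in preadipocyte libraries and 41.03, 42.9 and 34.9 in smooth muscle libraries. For both genes, all intermediate and smooth muscle libraries were above all progenitor and preadipocyte libraries. In intermediate over progenitor libraries the rise was 3.15 ± 0.22 for Col4a5 and 4.66 ± 0.24 for Col4a6 (adjusted p = 7.65e-08 and 6.34e-09). In smooth muscle over progenitor libraries it was 2.32 ± 0.21 for Col4a5 and 3.96 ± 0.24 for Col4a6 (adjusted p = 2.87e-07 and 3.44e-09). Smooth muscle libraries were below intermediate libraries, at log2 fold changes of -0.83 ± 0.20 and -0.69 ± 0.20 (adjusted p = 0.00502 and 0.0147), and library size alone called neither (adjusted p = 0.141 and 0.375). Without smooth muscle replicate 3 the difference in Col4a6 was not called (adjusted p = 0.0648). The ratio of Col4a6 to Col4a5 counts was 0.289 to 0.359 in intermediate and smooth muscle libraries and 0.0384 to 0.131 in the others. The paired chains Col4a3 and Col4a4, known from kidney, stayed at or below 20.3 CPM in every library. Col4a3 shares 563 of its exon bases, 5.65%, with an antisense transcript.

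Types XV and XVIII, which carry sugar chains and lie at the outer face of basement membranes, did not follow type IV. Col15a1 was at 83.6, 87.4 and 58.6 CPM in progenitor libraries, 59.8, 52.6 and 42.4 in intermediate libraries, 144, 88.4 and 46.8 in preadipocyte libraries and 52.1, 38.7 and 42.6 in smooth muscle libraries. The preadipocyte replicates spread from the level of the smooth muscle libraries to the highest of all, so the populations overlapped. Preadipocyte libraries were called above intermediate (0.85 ± 0.29, adjusted p = 0.0211), and limma-voom did not call it (adjusted p = 0.0518). Without preadipocyte replicate 1 that difference was 0.41 (adjusted p = 0.17), and without intermediate replicate 3 it was 0.81 (adjusted p = 0.0528). Col18a1 was at 133, 139.9 and 124 CPM in smooth muscle libraries, above all others, which held 44.01, 44.2 and 39.5 in progenitor, 40.3, 38.4 and 19.99 in intermediate and 89.4, 62.1 and 38.7 in preadipocyte libraries. Its fold change from intermediate to smooth muscle libraries was 2.01 ± 0.27 (adjusted p = 2.99e-05). The endothelial list, 10 genes of a cell type that also makes basement membrane, summed to 166 to 208 CPM in smooth muscle and 63.0 to 158 CPM in the other libraries, and its part in these values was not tested.

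**Figure D3:**
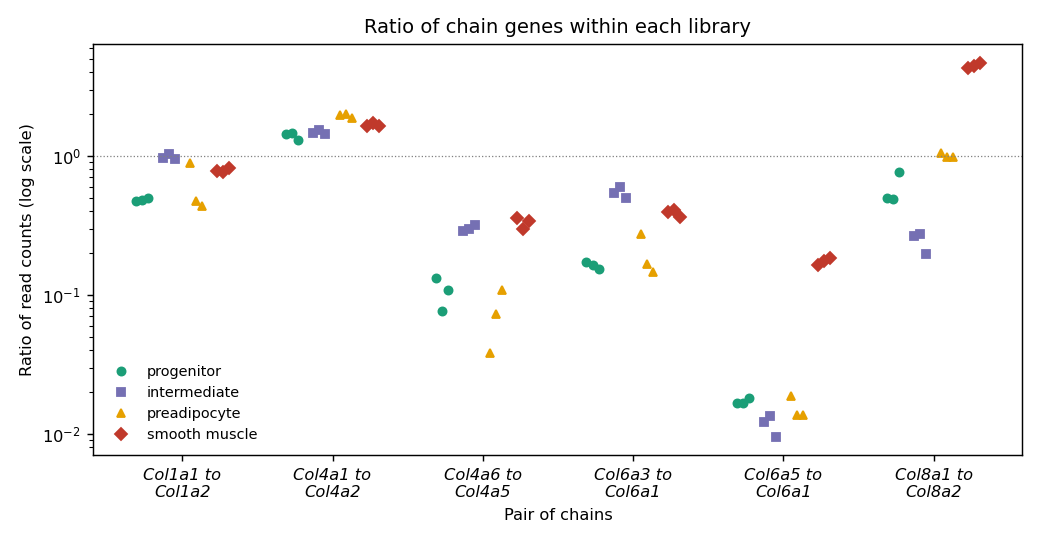
Ratio of read counts of 6 pairs of collagen chain genes in each library (log axis, dotted line at equal counts). The ratio of Col4a1 to Col4a2 lies between 1.30 and 1.99, with preadipocyte libraries highest. That of Col6a5 to Col6a1 is 0.164 to 0.183 in smooth muscle and at most 0.0188 in other libraries.

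The chains that coat fibrils were highest in intermediate cells and lowest in preadipocytes among the abundant members. Col14a1, which binds the fibril surface and limits its growth, was at 2542, 2289 and 2648 CPM in progenitor and 4108, 4222 and 3634 CPM in intermediate libraries. It was at 192, 186 and 133 CPM in preadipocyte libraries and 889.9, 969 and 809 CPM in smooth muscle libraries. No populations overlapped, and the log2 fold change from progenitor to preadipocyte was -3.87 ± 0.17 (adjusted p = 9.79e-11). The rise from progenitor to intermediate (0.68 ± 0.15, adjusted p = 0.00388) was not called with no filter on low counts (adjusted p = 0.0766). Nor was it called without progenitor replicate 2, intermediate replicate 1 or intermediate replicate 2, with adjusted p of 0.0771, 0.053 and 0.0585. Col16a1 was at 732, 675 and 748 CPM in progenitor libraries, 2082, 2028 and 1931 in intermediate libraries, 109, 74.7 and 52.4 in preadipocyte libraries and 247, 246 and 232 in smooth muscle libraries. It rose by 1.49 ± 0.19 from progenitor to intermediate and changed by -3.19 ± 0.20 to preadipocyte libraries (adjusted p = 4.24e-05 and 4.96e-09). Col12a1, the close relative of Col14a1, was at 279, 251 and 278 CPM in progenitor libraries, 707, 675 and 609.9 in intermediate libraries, 111, 84.98 and 69.2 in preadipocyte libraries and 298, 311 and 297 in smooth muscle libraries. Intermediate libraries were highest (1.30 ± 0.15, adjusted p = 1.48e-05). Smooth muscle and progenitor libraries did not differ by the test (0.16 ± 0.15, adjusted p = 0.367), though library size alone called smooth muscle higher at 0.61 (adjusted p = 0.00267) and a minimum of 5 CPM in 3 libraries at 0.36 (adjusted p = 0.0462). The ratio of Col14a1 to Col12a1 counts fell between 9.10 and 9.54 in progenitor, 5.81 and 6.26 in intermediate, 2.73 and 3.12 in smooth muscle, and 1.72 and 2.19 in preadipocyte libraries.

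By CPM, a pair of low-level genes was lowest in progenitor cells and highest in smooth muscle cells. Col22a1, a chain known from muscle-tendon junctions, was at 0.543, 0.137 and 0.804 CPM in progenitor libraries, 1.87, 3.61 and 3.18 in intermediate libraries, 7.61, 4.05 and 2.95 in preadipocyte libraries and 15.4, 13.5 and 8.05 in smooth muscle libraries. Col28a1, a chain known from nerve and Schwann cells, was at 0.466, 0.616 and 0.603 CPM in progenitor libraries, 2.14, 1.80 and 1.999 in intermediate libraries, 5.72, 3.20 and 2.84 in preadipocyte libraries and 9.04, 10.4 and 7.63 in smooth muscle libraries. Rises from progenitor to smooth muscle libraries were 4.61 ± 0.49 and 3.98 ± 0.33 and those to preadipocyte libraries 3.28 ± 0.50 and 2.78 ± 0.33. Smooth muscle libraries carried the highest Schwann cell sum too, as given above, and its part in these values was not tested. The median count per kilobase of Col22a1 in progenitor libraries was 3.33 times the stray-read level of those libraries, and that in smooth muscle libraries 8.28 times a level that was itself higher, as given above. For Col28a1 those medians were 7.83 and 10.9 times. Relative to the stray-read level, Col22a1 and Col28a1 were highest in preadipocyte libraries, with medians of 52.2 and 73.7 times. The rises of both genes from progenitor to smooth muscle libraries were still called when an even background of that level was subtracted.

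Type VI filaments split by chain. Col6a1, which belongs to every type VI molecule, was at 4398, 4310.5 and 4562 CPM in progenitor libraries, 3964, 3983 and 3752 in intermediate libraries, 1206, 1434 and 878 in preadipocyte libraries and 1046, 1045 and 1007 in smooth muscle libraries. Col6a2, the other common chain, was at 3414, 3190.0 and 3318 CPM in progenitor libraries, 2976, 2963 and 2879.7 in intermediate libraries, 893, 925 and 617 in preadipocyte libraries and 845, 868 and 877 in smooth muscle libraries. For both, all progenitor and intermediate libraries were above all preadipocyte and smooth muscle libraries. Col6a1 did not pass the test between intermediate and progenitor libraries (-0.18 ± 0.15, adjusted p = 0.389) and was lower in preadipocyte than progenitor libraries (-1.92 ± 0.16, adjusted p = 6.09e-08). The remaining slot of the molecule is taken by Col6a3 or one of its relatives, and here the populations differed. Col6a3 was at 760.4, 704 and 700.2 CPM in progenitor and 2135, 2376 and 1881 CPM in intermediate libraries, a rise of 1.56 ± 0.24 (adjusted p = 0.000209). Preadipocyte libraries held 333, 239 and 129 CPM and smooth muscle libraries 415, 425 and 364 CPM.

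Col6a5 was highest in smooth muscle cells. It was at 73.2, 71.9 and 82.7 CPM in progenitor libraries, 48.3, 53.8 and 35.9 in intermediate libraries, 22.7, 19.7 and 11.98 in preadipocyte libraries and 172, 184 and 184 in smooth muscle libraries. No populations overlapped. Its fold change was 1.97 ± 0.20 from intermediate and 3.31 ± 0.21 from preadipocyte to smooth muscle libraries (adjusted p = 1.57e-06 and 3.7e-09), against -1.92 ± 0.16 for Col6a1 from intermediate to smooth muscle. Col6a6, whose gene lies 27.9 kb from Col6a5 on the same strand of chromosome 9, was at 358, 329.9 and 391 CPM in progenitor libraries, 363, 398 and 322 in intermediate libraries, 63.8, 63.04 and 40.00 in preadipocyte libraries and 272, 267 and 245 in smooth muscle libraries. Preadipocyte libraries were far below the rest (-2.69 ± 0.17 from progenitor), and the ratio of Col6a6 to Col6a1 counts was 0.244 to 0.260 in smooth muscle libraries and at most 0.100 elsewhere. The smaller called difference of Col6a6 between smooth muscle and intermediate libraries changed sign, from -0.47 to 0.02, when libraries were scaled by size alone.

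The chains of the type VIII network moved apart from each other. Col8a1 was at 47.5, 44.7 and 68.9 CPM in progenitor libraries, 19.3, 19.6 and 12.4 in intermediate libraries, 36.4, 33.7 and 28.4 in preadipocyte libraries and 82.1, 91.4 and 96.9 in smooth muscle libraries, highest in smooth muscle and lowest in intermediate cells. Col8a2 was at 94.9, 91.2 and 89.4 CPM in progenitor libraries, 72.8, 71.8 and 63.3 in intermediate libraries, 34.7, 34.1 and 29.02 in preadipocyte libraries and 19.2, 20.5 and 20.7 in smooth muscle libraries, highest in progenitor and lowest in smooth muscle cells, with no overlap among populations. From intermediate to smooth muscle libraries Col8a1 rose by 2.39 ± 0.20 and Col8a2 changed by -1.78 ± 0.12 (adjusted p = 2.22e-07 and 3.61e-08). The ratio of Col8a1 to Col8a2 counts was 4.29 to 4.68 in smooth muscle, 0.979 to 1.05 in preadipocyte, 0.491 to 0.771 in progenitor and 0.197 to 0.273 in intermediate libraries.

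Of the chains anchored in the cell membrane, Col23a1 was at 12.03, 25.9 and 19.4 CPM in progenitor libraries, 48.7, 47.4 and 47.9 in intermediate libraries, 13.1, 11.1 and 6.91 in preadipocyte libraries and 9.68, 10.4 and 12.7 in smooth muscle libraries. Intermediate libraries were above all others (1.33 ± 0.25 over progenitor, adjusted p = 0.00122). The other membrane chains Col13a1, Col17a1 and Col25a1 stayed at or below 9.76 CPM in every library. Col26a1, a short chain known from testis and ovary, was at 19.3 ± 4.04 CPM in preadipocyte libraries and 18.1 ± 3.46 CPM in smooth muscle libraries against 10.3 ± 2.64 in progenitor and 5.37 ± 0.894 in intermediate libraries. It was among the few chain genes called higher in preadipocyte than in progenitor libraries (0.91 ± 0.23, adjusted p = 0.00345). Col6a4, Col7a1, Col10a1, Col19a1 and Col20a1 had means below 10 CPM in every population. In smooth muscle libraries, 11 of 44 members lay below 5 times the stray-read level in at least 1 library, against 6 in progenitor, 9 in intermediate and 5 in preadipocyte libraries.

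**Figure D4:**
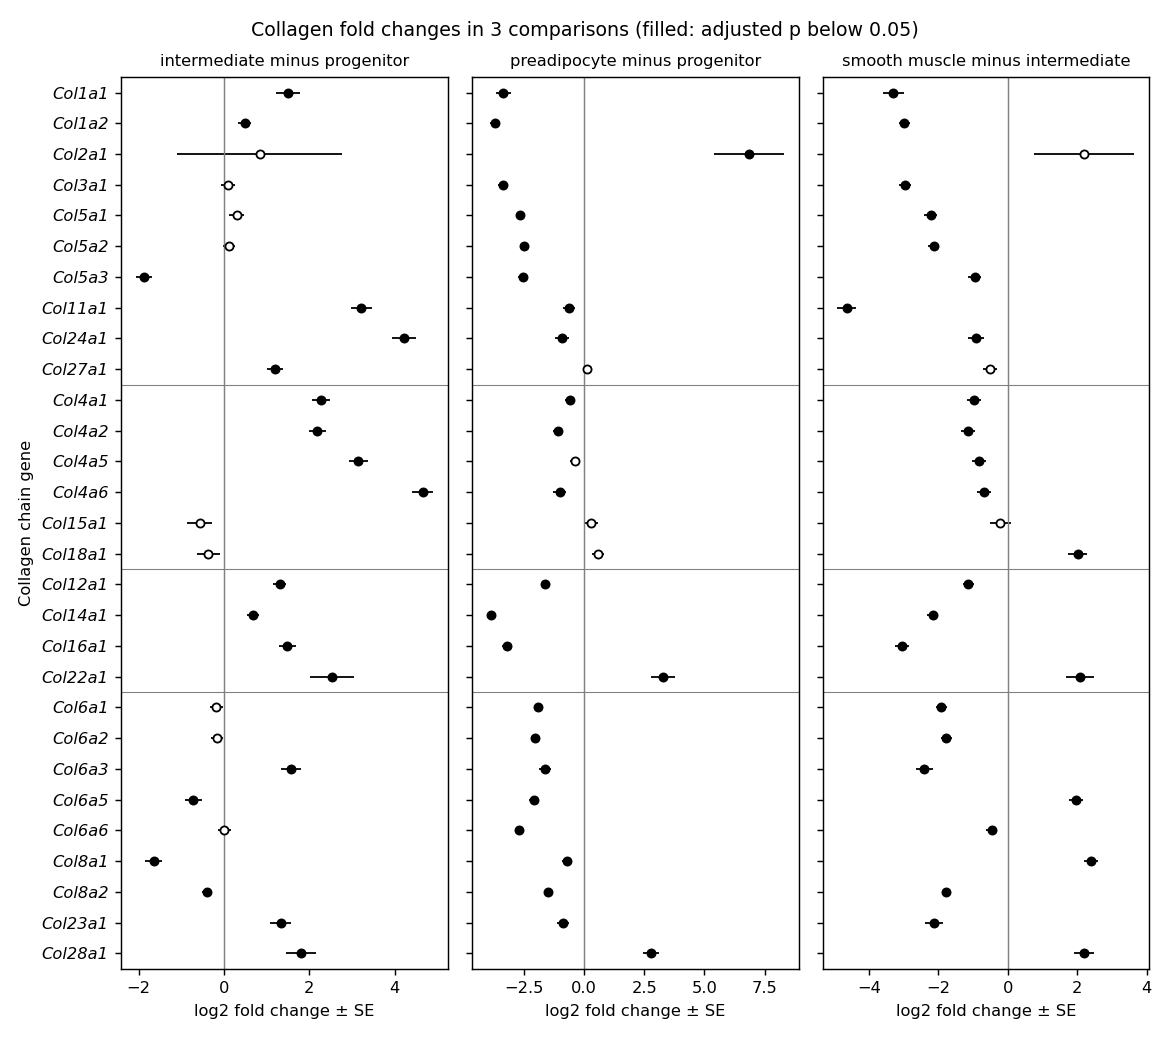
Log2 fold changes ± SE of the same 29 genes in 3 comparisons, with filled points where the adjusted p is below 0.05 and grey lines between the classes. From progenitor to preadipocyte, Col1a1, Col1a2, Col3a1, Col14a1 and Col16a1 lie below -3, and from progenitor to intermediate Col24a1 and Col4a6 lie above 4.

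In counts over the whole list, intermediate libraries were above progenitor libraries for 21 of 44 genes and below for 5. Of all genes tested, 14.1% were called higher and 13.4% lower in that comparison. The median log2 fold change was 0.60 over the chain genes and 0.05 over all genes. Basement membrane chains were called higher in 5 of 8 cases and lower in none, fibril-associated chains in 5 of 9 and lower in none, fibrillar chains higher in 6 of 11 and lower in 1 (Col5a3), and other chains higher in 5 of 16 and lower in 4. The 4 lower ones were Col26a1, Col8a1 (-1.65 ± 0.20), Col6a5 (-0.72 ± 0.19) and Col8a2 (-0.41 ± 0.12), of which Col8a2 was not called without progenitor replicate 1 (adjusted p = 0.0775).

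Preadipocyte libraries were below progenitor libraries for 28 of 44 genes and above for 7, beside 25.9% of all genes called lower and 25.1% higher. The chain gene median was -1.04 and that of all genes 0.04. Of the fibrillar chains 8 of 11 were lower and 2 higher, and of the other chains 11 of 16 were lower and 3 higher. Basement membrane chains were lower in 5 of 8 cases and fibril-associated chains in 4 of 9. With no scaling beyond library size, the all-gene median moved by 0.39 and the split was 20 lower and 11 higher chain genes. Against intermediate libraries, 30 of 44 were lower in preadipocytes and 7 higher, beside 31.1% and 26% of all genes, with medians of -1.47 and -0.24. Without preadipocyte replicate 1 the 7 became 4.

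Smooth muscle libraries were below intermediate libraries for 22 of 44 genes and above for 9, beside 13.1% and 15.7% of all genes. The 22 included 8 of 11 fibrillar chains and 4 of 8 basement membrane chains, and the 9 included Col18a1, Col6a5, Col8a1, Col22a1 and Col28a1. Medians were -0.60 for chain genes and 0.10 for all genes, and with no scaling beyond library size, a change that moved the all-gene median by 0.48, there were 15 lower and 13 higher. Compared with progenitor libraries, smooth muscle libraries were higher for 19 and lower for 18, beside 30.5% and 23.6% of all genes, with medians of 0.50 and 0.09. Library size alone gave 22 and 12. The classes divided here, with 7 of 8 basement membrane chains higher and 7 of 11 fibrillar chains lower. Compared with preadipocyte libraries, smooth muscle libraries were higher for 29 and lower for 4 (Col2a1, Col8a2, Col11a1 and Col15a1), beside 40.7% and 25.9% of all genes and with medians of 1.21 and 0.35. The 4 lower calls were 2 without preadipocyte replicate 1, 8 without preadipocyte replicate 3, and 7 without progenitor replicate 2 or any of the intermediate replicates. These comparisons share libraries, so their counts are not independent of each other.

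Preadipocyte replicate 1 stood apart for the collagens of cartilage. Col2a1, the chain of the main cartilage fibril, was at 156, 5.32 and 2.51 CPM in replicates 1, 2 and 3 of the preadipocytes, which are 2887, 88 and 45 counts. It was at 0.233, 0.274 and 0.871 CPM in progenitor, 0.891, 0.902 and 0.727 in intermediate and 9.04, 1.91 and 0.848 in smooth muscle libraries. Replicate 1 alone was above 10 CPM. The fold change from progenitor to preadipocyte was 6.84 ± 1.46 (adjusted p = 0.000969), and 3.05 without replicate 1 (adjusted p = 0.00459). limma-voom did not call it (4.93, adjusted p = 0.151), and DESeq2 gave no adjusted p. The fold change from preadipocyte to smooth muscle libraries was -3.80 ± 1.14 with all libraries and -0.05 without replicate 1.

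Of the 5 type IX and type XI chains, partners of type II collagen in cartilage fibrils, 3 were also highest in that library. Col9a1 was at 6.05, 0.967 and 1.06 CPM, Col9a3 at 14.6, 1.93 and 1.84 CPM and Col11a2 at 12.7, 4.77 and 3.51 CPM in replicates 1, 2 and 3 of the preadipocytes. In each case replicate 1 was the highest of all 12 libraries. Col9a2 was at 9.18, 5.08 and 3.34 CPM in the same replicates and at up to 10.3 CPM in progenitor libraries, and Col11a1 was highest in intermediate libraries, as given above. Without replicate 1 of the preadipocytes, the fold change from progenitor to preadipocyte turned from 0.11 ± 0.56 to -1.58 for Col9a3 (adjusted p = 0.000315, a gene of which 6.07% of exon bases overlap Tcfl5 on the other strand) and moved from 1.34 ± 0.40 to 0.58 for Col11a2, which was then not called (adjusted p = 0.126). The list of 10 other cartilage genes (Acan, Sox9, Matn1 and others) summed to 77.0, 63.5 and 46.0 CPM in these replicates, and to 66.0 to 123 CPM in the other populations. Of that list, Acan was at 3.56, 0.363 and 0.724 CPM, Matn3 at 2.92, 0.302 and 0.668 CPM and Comp at 5.83, 0.302 and 0.501 CPM, with replicate 1 highest of the preadipocytes. Cnmd and Ucma were also highest there, and Snorc was at 0 in replicates 2 and 3. Hapln1 was at 3.13, 4.59 and 1.34 CPM and Matn4 at 3.56, 3.75 and 1.56 CPM, and these and Matn1, at 0 in replicate 2, were not highest in replicate 1. Sox9, which made up most of the sum, was at 51.8, 53.3 and 39.6 CPM. Acan was at 53.03 ± 4.99 CPM in smooth muscle libraries, above every preadipocyte library. The part of cartilage cells in these values was not tested beyond these sums. Preadipocyte replicate 3 differed in another way, with red blood cell genes summing to 9893 CPM against 581 and 780 in replicates 1 and 2, and it was the lowest of the 3 for Col1a1, Col3a1, Col4a1 and Col6a3. Whether these values are related was not tested.

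**Figure D5:**
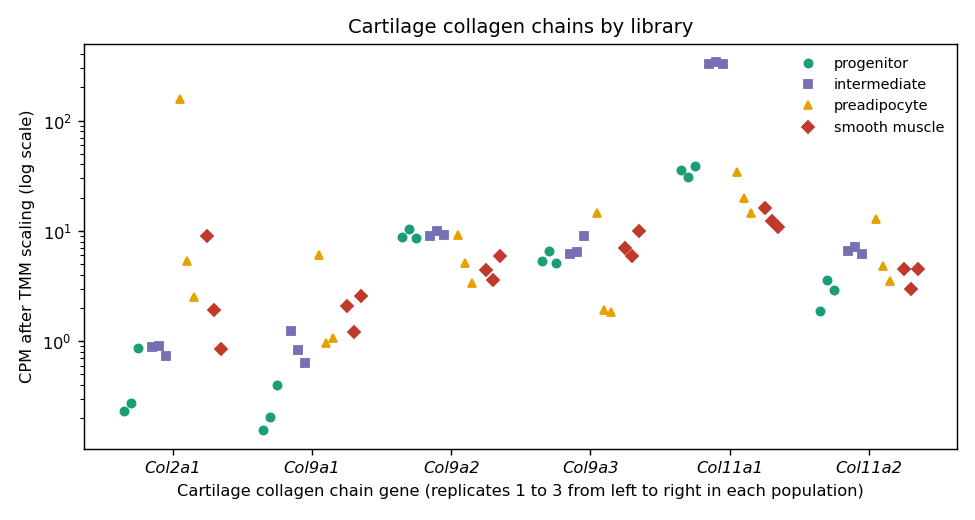
CPM after TMM scaling (log axis) of 6 cartilage collagen chain genes in each library. Preadipocyte replicate 1, the left triangle, is at 156 CPM for Col2a1 against 5.32 and 2.51 in replicates 2 and 3, and Col11a1 is set apart by the intermediate libraries.

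Genes that process, bind, sense and degrade collagen were examined as lists. Of 31 genes for folding, modification, cleavage and crosslinking of collagen chains, 28 were lower and 2 higher in preadipocyte than in progenitor libraries, 7 higher and 1 lower in intermediate than in progenitor libraries, and 25 lower and 1 higher in smooth muscle than in intermediate libraries. Of all genes tested, 25.9% were lower and 25.1% higher in the first comparison, 14.1% higher and 13.4% lower in the second, and 13.1% lower and 15.7% higher in the third. The median log2 fold change of the list was -1.73 from progenitor to preadipocyte, 0.00045 from progenitor to intermediate and -1.14 from intermediate to smooth muscle libraries, beside 0.04, 0.05 and 0.10 over all genes. P4ha2, a subunit of the prolyl hydroxylase that stabilises the helix, was at 303 ± 19.9 CPM in progenitor libraries, 325 ± 13.1 in intermediate libraries, 24.8 ± 3.52 in preadipocyte libraries and 69.9 ± 4.79 in smooth muscle libraries. Adamts2, which removes the amino-terminal propeptide of fibrillar chains, was at 1238 ± 77.9, 2210.5 ± 56.3, 97.96 ± 19.8 and 696 ± 36.5 CPM in that order. Pcolce2, an enhancer of carboxy-terminal cleavage, was at 126 ± 5.37, 68.7 ± 2.15, 4.16 ± 1.16 and 31.1 ± 2.68 CPM. All 3 were lowest in preadipocytes. Pcolce2 was highest in progenitor cells and Adamts2 in intermediate cells, while P4ha2 had similar means in both.

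Of 15 proteins that bind collagen fibrils, 12 were lower and 1 higher in preadipocyte than progenitor libraries, and 12 lower and none higher in smooth muscle than intermediate libraries. Of all genes tested, 25.9% were lower and 25.1% higher in the first of these and 13.1% lower and 15.7% higher in the second. The medians were -2.88 and -1.68, beside 0.04 and 0.10 over all genes. Postn, the periostin gene, was at 13079 ± 117 CPM in progenitor and 16121 ± 544 in intermediate libraries against 1456 ± 276 in preadipocyte libraries and 3059 ± 307 in smooth muscle libraries. Dpt, encoding dermatopontin, was at 771 ± 40.5, 792 ± 68.3, 103 ± 12.97 and 122 ± 24.2 CPM in that order. Lum, encoding the fibril-spacing proteoglycan lumican, was at 2403 ± 200.4, 1269 ± 158, 433 ± 33.2 and 228 ± 38.1 CPM. Lum was highest in progenitor cells and lowest in smooth muscle cells.

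Among 12 collagen receptors, 6 were lower and 1 higher in preadipocyte than progenitor libraries, and 6 higher and 2 lower in intermediate than progenitor libraries. Over all genes tested, the shares were 25.9% lower and 25.1% higher, and 14.1% higher and 13.4% lower. The medians were -0.78 and 0.60, beside 0.04 and 0.05 over all genes. For smooth muscle against intermediate libraries, 3 were higher and 3 lower, beside 15.7% and 13.1% of all genes, with medians 0.26 and 0.10. For smooth muscle against progenitor libraries, 8 were higher and 3 lower, beside 30.5% and 23.6%, with medians 1.55 and 0.09. For smooth muscle against preadipocyte libraries, 11 were higher and none lower, beside 40.7% and 25.9%, with medians 2.08 and 0.35. Itga11, the subunit of a fibrillar collagen integrin, was at 44.6 ± 2.19 CPM in progenitor libraries, 96.9 ± 1.997 in intermediate libraries, 4.07 ± 0.737 in preadipocyte libraries and 52.8 ± 7.52 in smooth muscle libraries. Mrc2, an endocytic receptor that takes up collagen fragments, was at 262 ± 14.2, 371 ± 3.08, 47.8 ± 12.5 and 92.5 ± 2.86 CPM. Adgrg6, an adhesion receptor that binds type IV collagen, was at 7.53 ± 0.437, 19.8 ± 0.489, 2.26 ± 0.493 and 20.6 ± 1.46 CPM, highest in intermediate and smooth muscle libraries. Of 8 collagen-degrading proteases, 7 were tested, and 5 were lower and none higher in preadipocyte than progenitor libraries, while 4 were lower and none higher in smooth muscle than intermediate libraries, with medians of -2.03 and -1.33. Beside them, 25.9% and 13.1% of all genes were lower and 25.1% and 15.7% higher, with medians of 0.04 and 0.10. Ctsk, the collagenolytic cathepsin K, was at 364 ± 32.99, 436 ± 29.7, 54.2 ± 9.72 and 50.7 ± 7.38 CPM. Mmp14, the membrane-type collagenase, was at 933 ± 6.32, 1755 ± 92.7, 167 ± 26.6 and 596 ± 27.3 CPM, and Fap, a membrane protease of fibroblasts, at 184 ± 7.99, 271 ± 14.4, 51.4 ± 5.10 and 42.9 ± 6.36 CPM.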

How the data were processed

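Poly(A) RNA of sorted cells was copied with the SMART-Seq v4 kit, per the labels' protocols. The authors deposited 1 table of raw read counts per gene for the 12 libraries. STAR 2.5.2a, DESeq2 1.26.0 and mm10 are named in the submitters' processing notes, and how reads were assigned to genes, by which annotation and strand rule, is not given in the sources used here. SMART-Seq v4 libraries carry no molecular identifiers, so a count is a read and not a molecule.

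All 12 libraries were fitted together with edgeR 4.0.16 (R 4.3.3), after its low-count filter and TMM scaling, with the quasi-likelihood test and Benjamini-Hochberg adjustment over 21285 genes. Gene lengths and positions came from GENCODE M21. Levels per kilobase used all exon bases. Alternatives were DESeq2 1.42.0, limma-voom (limma 3.58.1), other scalings and filters, a replicate block, subtraction of an even background, and leaving out each library. Replicates of a population differed by more than sampling noise. The fits were also run on simulated counts in which far fewer genes differed than in these data. That run does not measure error rates in the present setting.

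Library values are given for chain genes with a mean of at least 20 CPM in a population, or an 8-fold range of means with at least 5 CPM in each library of the highest population. In each pathway list, the 3 genes with the smallest p over all populations are named. The members and lists were chosen with earlier results of these data known. The removal of preadipocyte replicate 1 from single fold changes was chosen after seeing the data.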

Additional observations from a re-analysis of the deposited data

How the results depend on the processing

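Of 272 recomputed counts of called chain genes, 262 stayed within 1.5 times their value. A set of 93 named log2 fold changes was recomputed under 9 alternatives that leave out no single replicate. Of the 832 values, 808 kept their direction and their side of the threshold, and none was reversed. The Col6a6 difference between smooth muscle and intermediate libraries, which changed sign with library size alone, was not in this set. The 7 genes higher in preadipocyte than progenitor libraries became 11 with library size alone. The 7 higher in preadipocyte than intermediate libraries became 4 with limma-voom and ranged from 4 to 9 when 1 library was left out. The 4 lower in smooth muscle than preadipocyte libraries became 8 with no low-count filter and ranged from 2 to 8 when 1 library was left out. The cause was not tested. Of 241 calls on chain genes over all comparisons, library size alone lost 25, gained 13 and reversed 1 (Col6a6 in smooth muscle against intermediate libraries, 0.02). DESeq2 lost 3 and gained 4, and limma-voom lost 8 and gained 5. With DESeq2 a further 14 chain gene tests had no adjusted p and are not counted as lost. Same-numbered replicates showed no clear pairing: correlations of their deviations ran from -0.163 to 0.207 and 4 of 12 libraries correlated best with their own number. With 3 libraries per population, this check cannot decide whether same-numbered replicates shared a sort. A replicate block lost 2 calls and gained 2, and left 42 chain genes called among the populations and 28 lower in preadipocyte than progenitor libraries. Stray reads limit the rarest members: up to 11 of 44 in a population lay below 5 times the level per kilobase of olfactory and vomeronasal receptor genes in at least 1 library. Subtracting an even background of that level lost 5 calls and gained 2, with 43 members tested and 7 chain gene tests left without a result.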
